A study of Mus musculus with 6 samples.

Results

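The genes described here are the DNA-binding repressors *Gfi1* and *Gfi1b* and 4 genes of the LSD1 corepressor that these factors recruit, *Kdm1a*, *Rcor1*, *Rcor3* and *Hmg20b*. They were chosen by name, and all 6 were found among the 12101 genes of the deposited table. RNA was sequenced from megakaryocyte–erythroid progenitors (MEPs), the bone marrow cells from which red blood cells and platelet-forming megakaryocytes develop, of adult mice of the CD-1 strain. There were 3 dox-treated and 3 untreated replicates. Every animal was *Nanog* tg: all carried the reverse tetracycline transactivator (M2rtTA) under the broadly active *Rosa26* locus and a *Nanog* transgene behind a tetracycline operator at *Col1a1*. Doxycycline (dox) was given for 5 days in the drinking water of the treated mice, and the untreated mice had the same genotype but no dox, so *Nanog* induction and exposure to dox cannot be told apart. MEPs were sorted from bone marrow by their staining for CD34 and CD16/32 within lineage-negative, cKit-positive, Sca1-negative cells, a gate that also serves to separate them from granulocyte–monocyte progenitors. The sources do not say how many animals stand behind a replicate, and the p-values below measure only the spread between these samples, which may be technical.

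GFI1 and GFI1B are zinc-finger proteins that bind DNA sites with the core AATC and repress the genes nearby. A short stretch at their N-terminus, the SNAG domain, binds LSD1, a demethylase that removes methyl groups from histone tails. LSD1 is the product of *Kdm1a* and works together with a CoREST scaffold, encoded by *Rcor1*, *Rcor2* or *Rcor3*, with the histone deacetylases HDAC1 and HDAC2, and with HMG-box proteins such as the product of *Hmg20b*. GFI1B is needed for red blood cell and platelet formation and is the GFI1 factor typical of MEPs, while GFI1 is best known from granulocytes, lymphocytes and stem cells. The pair of factors also repress each other and themselves through AATC sites.

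Because of that autorepression, the sequence before the start site of each factor is shown, as RefSeq gives it on GRCm38.p6, 5′ to 3′ and ending at the base before the start. Capitals mark the GFI1 core AATC on either strand (GATT where it lies on the other strand) and a GATA-type motif, TGATAA or AGATAA on the strand shown or its reverse. The *Gfi1b* stretch lies at chr2:28621983-28622232 on the minus strand and that of the upstream *Gfi1* start at chr5:107725806-107726055, also on the minus strand.
Gfi1b: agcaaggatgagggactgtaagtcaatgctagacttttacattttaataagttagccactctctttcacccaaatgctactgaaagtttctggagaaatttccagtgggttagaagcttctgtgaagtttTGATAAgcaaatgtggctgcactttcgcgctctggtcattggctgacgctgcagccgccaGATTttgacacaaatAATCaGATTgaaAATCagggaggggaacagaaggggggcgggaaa
Gfi1: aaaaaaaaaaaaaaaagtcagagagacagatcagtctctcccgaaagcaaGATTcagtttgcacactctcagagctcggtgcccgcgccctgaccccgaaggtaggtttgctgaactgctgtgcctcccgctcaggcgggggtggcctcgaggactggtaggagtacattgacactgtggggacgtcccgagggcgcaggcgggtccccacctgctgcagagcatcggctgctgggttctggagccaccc
The *Gfi1b* stretch held 4 AATC matches between 60 and 30 bases before the start and 1 TGATAA at 120 to 115 bases before it. Of 32851 promoters of the same length, 69.0% held at least 1 AATC match, 7.04% held 4 or more, and 7.94% held TGATAA. The upstream *Gfi1* promoter held 1 AATC match, 200 to 197 bases before the start, and no GATA-type motif. The other *Gfi1* start had 0. *Kdm1a* had 1 AATC match and *Hmg20b* had 2 before each of its 3 starts, and none was found before the starts of *Rcor1* and *Rcor3*. These are matches of letters in a window and were not measured as binding sites in these data.

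Expression is given as CPM, that is reads per 1000000 after the authors' normalization of library sizes, and each value was tied back to whole reads. Libraries held from 11264803 to 16153600 reads on the genes of the table, and 1 read was worth between 0.0642 and 0.0910 CPM. Reads of *Nanog* itself numbered 17062, 19609 and 15959 under dox and 9, 13 and 1 in untreated libraries, so the groups matched their labels. Dox-treated replicate 3 stood apart: on the first principal component, which held 60.3% of the variance, it lay at -15.0, while the other dox-treated replicates lay at -57.5 and -56.4 and the untreated replicates between 35.2 and 54.3. Counts of calls among the 6 genes and over each list are given with and without that library. Listed genes whose call changed without it are not all named. All 6 genes were above 1 CPM in all 6 libraries, with at least 82 reads in each, so none depended on the filter for low values.

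Differential expression was tested with limma over 12088 genes with Benjamini–Hochberg adjustment. None of the 6 genes (0 of 6) passed an adjusted p of 0.05, where 7.77% of all genes tested did. At an unadjusted p of 0.05, 4 of the 6 passed, against 29.2% of all genes. For 4 of the 6 the libraries of the groups did not overlap, *Kdm1a* and *Rcor3* being higher with dox and *Gfi1b* and *Rcor1* lower, where the groups did not overlap for 35.9% of all genes. Means were lower with dox for both DNA-binding factors and for *Rcor1*, and higher for *Kdm1a*, *Rcor3* and *Hmg20b*. Without dox-treated replicate 3, *Rcor1* and *Rcor3* passed (2 of 6), where 28.9% of all genes did. With array weights, which give less weight to libraries that stand apart, *Gfi1b*, *Rcor1* and *Rcor3* passed (3 of 6), where 42.3% of all genes did. *Rcor1* alone passed (1 of 6) with a mean-variance trend and with voom precision weights, the latter chosen after seeing the data, where 13.7% and 9.80% of all genes did, and 0 of 6 passed with a replicate block, where 0.678% of all genes did.

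**Figure D1:**
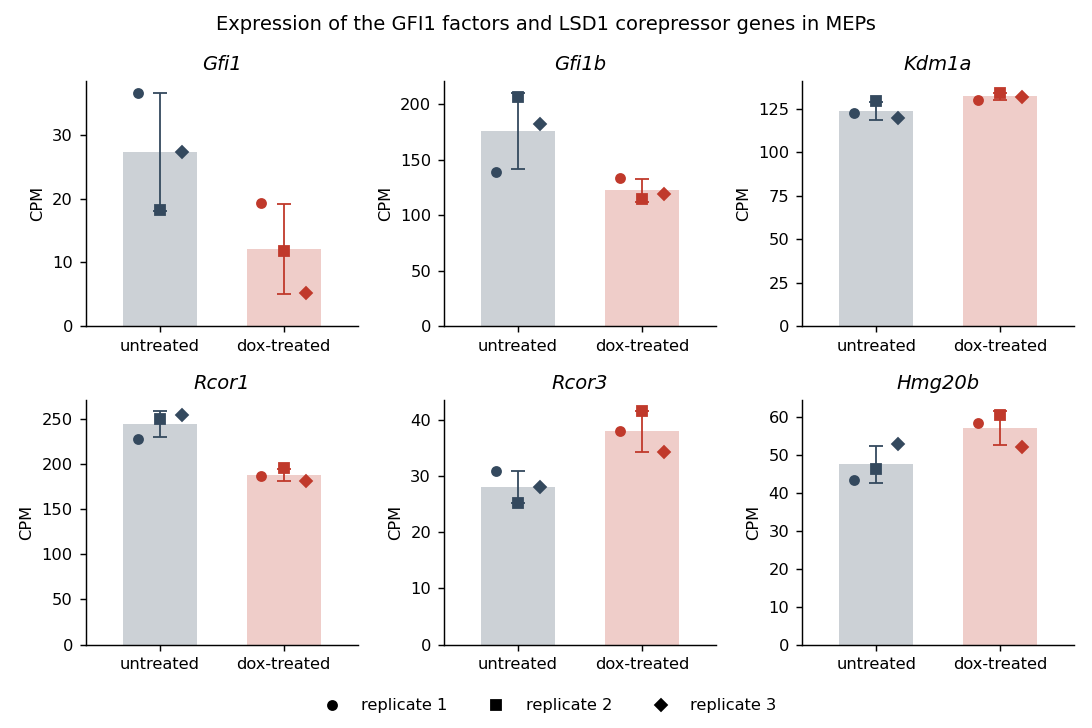
Expression of the 6 genes in CPM (vertical axes, each from 0) in untreated (dark) and dox-treated (red) MEPs; points are libraries with a marker shape for each replicate number, bars are means and error bars the SD (n = 3). The groups are apart for *Gfi1b*, *Kdm1a*, *Rcor1* and *Rcor3*, and overlap for *Gfi1* and *Hmg20b*.

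*Gfi1b* (ENSMUSG00000026815, NCBIM37 chromosome 2 from 28464970 to 28477502, minus strand) was the more abundant of the DNA-binding factors, per kb of exon, in every library. It was at 133.6, 114.1 and 119.0 CPM in dox-treated replicates 1, 2 and 3 and at 138.9, 206.7 and 182.6 CPM in untreated replicates 1, 2 and 3, with at least 1533 reads in each library. All dox-treated libraries lay below all untreated ones, but dox-treated replicate 1 and untreated replicate 1 were only a few CPM apart. Mean and SD over 3 libraries were 122.2 ± 10.2 CPM under dox and 176.1 ± 34.4 CPM in its absence. On the log2 scale this was a change of -0.51 with a standard error of 0.17, a 95% interval from -0.94 to -0.08 and an adjusted p of 0.12 in limma, that is 0.702 times the untreated level. The groups overlapped once the libraries were rescaled to the reads on listed genes, a scaling under which 3 of the 6 genes and 36.2% of all genes were apart.

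*Gfi1* (ENSMUSG00000029275, chromosome 5 from 108145674 to 108155056, minus strand) was the most variable of the 6 genes between libraries. Its levels were 19.3, 11.8 and 5.26 CPM in dox-treated replicates 1, 2 and 3, or 262, 158 and 82 reads. Untreated replicates 1, 2 and 3 had 36.7, 18.2 and 27.4 CPM, or 472, 246 and 301 reads. Both groups spread widely, and the highest dox-treated library, replicate 1, exceeded the lowest untreated one, replicate 2. Mean and SD over 3 libraries were 12.1 ± 7.02 CPM under dox and 27.4 ± 9.26 CPM in its absence. The log2 fold change from limma, -1.31, had a standard error of 0.51, a 95% interval from -2.57 to -0.05 and an adjusted p of 0.158. In size this difference exceeded that of 92.7% of all genes tested, yet it did not pass the test. Dox-treated replicate 3 had the lowest value, and without it the log2 fold change was -0.80, also with an adjusted p of 0.158 in limma. Under quantile normalization the groups did not overlap for *Gfi1* and did overlap for *Gfi1b*, and 4 of the 6 genes and 36.0% of all genes were apart.

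Within a library, the log2 ratio of *Gfi1* to *Gfi1b* reads shows the balance of the pair without regard to library scaling. It was -2.79, -3.27 and -4.49 in dox-treated replicates 1, 2 and 3 and -1.92, -3.50 and -2.74 in the untreated ones. The groups overlapped, and the difference was -0.80 (exact permutation test, two-sided, p = 0.4). It was -0.31 without dox-treated replicate 3 and -0.40 without untreated replicate 1, both with an exact p of 0.8. Per kb of exon, *Gfi1* made up 5.15% ± 2.56 (SD, n = 3) of the summed level of the pair with dox and 8.49% ± 4.16 (SD, n = 3) without, so *Gfi1b* accounted for most of the expression of the pair in every library.

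*Gfi1* and *Gfi1b* encode similar zinc fingers, and the counting could in principle exchange reads between them. The longest stretch that their annotated transcripts share without a mismatch is 27 bases, printed here because it bounds that exchange, and no run of 50 bases is shared. It spans an exon junction in both genes, within chr5:108146922-108149139 for *Gfi1* and within chr2:28465708-28466949 for *Gfi1b* (NCBIM37).
Gfi1 and Gfi1b: catccacacaggtgagaagccccacaa
The longest run shared by *Rcor1* and *Rcor3* was 23 bases, at chr12:112335780-112335802 and chr1:193949772-193949794 (NCBIM37).
Rcor1 and Rcor3: caagcctttagttttcatgggaa
A longer read cannot match the annotated transcripts of both genes of a pair without a mismatch. Exons on the opposite strand were another possible source of shared reads, since the use of strand in counting is not given in the sources used here. *Gfi1* shares 101 exonic bases with the lincRNA *A430072P03Rik* and *Rcor3* shares 674 with the lincRNA *Gm16621*, and reads there cannot be told apart without strand.

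*Gfi1* is also expressed in granulocyte–monocyte progenitors. A list of granulocyte and monocyte markers, which is not limited to genes of those progenitors, moved in the same libraries. Of 23 granulocyte–monocyte markers tested, 14 fell with dox and 0 rose, where 3.18% of all genes fell and 4.59% rose, and 22 of 23 had a lower mean. The median log2 fold change of the list was -2.44, against -0.03 for all genes tested. *Ly6c2*, a monocyte surface protein, fell by 3.31 on the log2 scale (adjusted p = 0.0083, limma), *Fcnb*, a ficolin of granulocyte precursors, fell by 3.96 (adjusted p = 0.010), and *Elane*, neutrophil elastase, fell by 3.22 (adjusted p = 0.011). *Prtn3*, proteinase 3 of neutrophil granules, fell by 2.79 (adjusted p = 0.016, limma), and *Cebpe* is described with the targets. The summed level of the 23 markers was 860.3, 888.5 and 596.2 CPM in dox-treated replicates 1, 2 and 3 and 6192, 2715 and 4414 CPM in untreated replicates 1, 2 and 3, and no marker was at 0 reads in any library. Among the untreated libraries the sum had the same order as *Gfi1*, highest in replicate 1 and lowest in replicate 2, and in both measures dox-treated replicate 3 was the lowest of all libraries. Between dox-treated replicates 1 and 2 the order differed, *Gfi1* being higher in replicate 1 and the sum slightly higher in replicate 2. *Mpo*, named after its values were seen, was the largest part of the sum. It was at 506.3, 460.4 and 323.8 CPM in dox-treated replicates 1, 2 and 3, the order of *Gfi1*. Other markers went the other way between replicates 1 and 2, such as *Elane* at 61.4 and 75.9 CPM. *Gfi1b* did not have the untreated order of *Gfi1*: its highest untreated library was replicate 2. Without dox-treated replicate 3, 15 of the 23 markers fell, where 28.9% of all genes were called in either direction. The CD34 and CD16/32 gate is meant to leave granulocyte–monocyte progenitors out. The part of these cells in the level of *Gfi1* was not tested, and in bulk samples fewer cells of a type and less RNA per cell cannot be told apart.

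**Figure D2:**
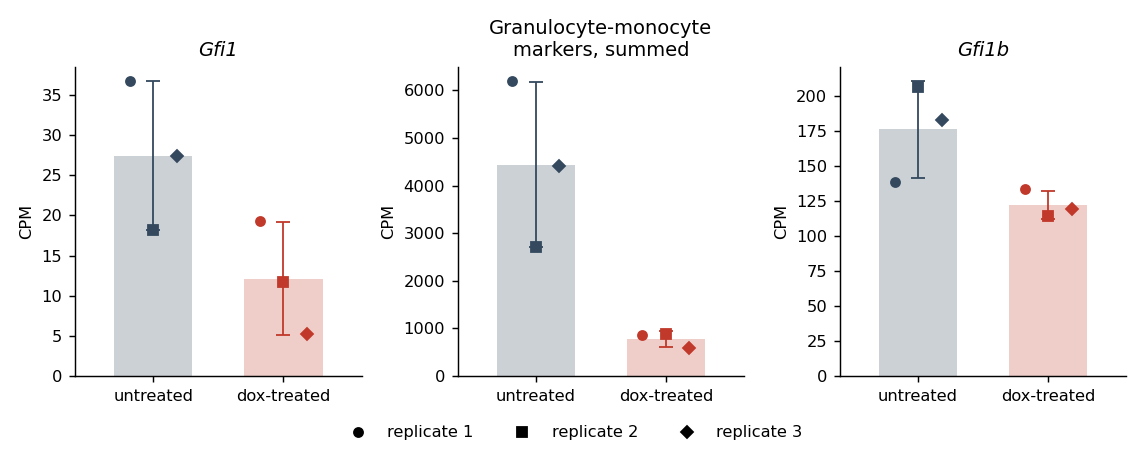
*Gfi1* (left), the sum of 23 granulocyte–monocyte markers (centre) and *Gfi1b* (right), in CPM on axes from 0, in untreated (dark) and dox-treated (red) libraries; marker shapes give the replicate number, bars the mean and error bars the SD (n = 3). Untreated replicate 1 (circle) is the highest and dox-treated replicate 3 (diamond) the lowest in the first pair of plots, whereas untreated replicate 2 (square) is the highest for *Gfi1b*.

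The other marker lists bear on what the MEP sort held. As shares of all genes tested, 4.59% rose and 3.18% fell, and 28.9% were called in either direction without dox-treated replicate 3. Of 20 erythroid markers tested, 3 fell and 0 rose, and without that library 9 fell and 1 rose. Their summed level was 6965, 6754 and 11245 CPM in dox-treated replicates 1, 2 and 3 and between 9412 and 9846 CPM without dox. Dox-treated replicates 1 and 2 thus lay below all untreated libraries and replicate 3 above them. Those that fell encode proteins of the red cell membrane and its skeleton, *Ermap* (log2 fold change -0.77, adjusted p = 0.024, limma), *Epb4.2* (-1.58, 0.035) and *Ank1* (-0.71, 0.039). Means were higher with dox for 9 of the 20 and lower for 11, and the median log2 fold change was -0.22. The defining factor of the lineage, *Gata1*, named after its values were seen, averaged 171.8 CPM (SD 30.8, n = 3) under dox against 229.5 CPM (SD 13.5, n = 3) untreated, with an adjusted p of 0.13 in limma, and of 0.020 without dox-treated replicate 3. Of 14 megakaryocyte markers 3 rose and 1 fell (5 and 2 without dox-treated replicate 3), and their sum was 604.9, 599.0 and 284.1 CPM in dox-treated replicates 1, 2 and 3 and between 159.5 and 230.4 CPM without dox. The platelet glycoprotein genes *Gp9* (log2 fold change 1.28, adjusted p = 0.032, limma) and *Gp1ba* (0.90, 0.049) and the adhesion receptor gene *Selp* (1.19, 0.041) rose, and *Vwf*, which encodes von Willebrand factor, fell (-1.31, 0.018). Of 7 mast cell and basophil markers 3 rose and 0 fell (3 and 1 without that library), and the sum was between 226.8 and 255.9 CPM with dox and between 111.7 and 139.0 CPM without. The mast cell genes that rose were *Cpa3*, a carboxypeptidase (log2 fold change 2.93, adjusted p = 0.0096, limma), *Slc18a2*, which encodes a vesicular monoamine transporter (1.497, 0.032), and *Ms4a2*, part of the high-affinity receptor for IgE (2.76, 0.022). *Gp1ba* passed in 8 of 17 alternatives and *Selp* in 8 of 16, with adjusted p-values up to 0.159 and 0.144 in limma. The other erythroid, megakaryocyte and mast cell markers called and named here passed in 11 to 16 of 17. Of 10 stem and multipotent progenitor markers 0 passed, with a median log2 fold change of 0.82, and 6 rose without dox-treated replicate 3. The smallest p-values belonged to *Mllt3*, *Mecom* and *Hlf*, with log2 fold changes of 0.69, 2.04 and 1.71 and adjusted p-values of 0.071, 0.074 and 0.083 in limma. Of 8 lymphoid markers 0 passed with or without that library, and the lymphoid sum lay between 10.0 and 36.4 CPM. *Il7r* and *Cd79b* had adjusted p-values of 0.311 and 0.488 in limma. The part of these cell types in the levels of the 6 genes was not tested.

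*Kdm1a* (ENSMUSG00000036940, chromosome 4 from 136106455 to 136158638, minus strand), which encodes the demethylase LSD1 itself, was the steadiest of the 6 genes. It was at 130.1, 134.1 and 131.9 CPM in dox-treated replicates 1, 2 and 3 and at 122.5, 129.3 and 119.4 CPM in untreated replicates 1, 2 and 3. The groups did not overlap, with the lowest dox-treated library just above the highest untreated one. Mean and SD over 3 libraries were 132.1 ± 2.02 CPM under dox and 123.7 ± 5.10 CPM in its absence. limma gave a log2 fold change of 0.09, with a standard error of 0.094 and an adjusted p of 0.525, and a 95% interval from -0.13 to 0.32, that is from 0.911 to 1.25 times the untreated level.

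The means of the CoREST scaffold genes lay in opposite directions. *Rcor1* (ENSMUSG00000037896, chromosome 12 from 112277561 to 112354112, plus strand), which encodes CoREST itself, was at 186.5, 195.7 and 181.7 CPM in dox-treated replicates 1, 2 and 3 and at 227.7, 250.5 and 254.5 CPM in untreated replicates 1, 2 and 3. Every dox-treated library lay below every untreated one, by more than the spread within either group. Mean and SD over 3 libraries were 188.0 ± 7.11 CPM under dox and 244.2 ± 14.5 CPM in its absence. The log2 fold change from limma, -0.38, had a standard error of 0.10, a 95% interval from -0.62 to -0.13 and an adjusted p of 0.076. Without dox-treated replicate 3 the log2 fold change was -0.35 with an adjusted p of 0.0497 in limma.

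*Rcor3* (ENSMUSG00000037395, chromosome 1 from 193922652 to 193961892, minus strand), the scaffold known for weaker demethylase activity of the complexes that contain it, lay the other way. It was at 38.0, 41.5 and 34.3 CPM in dox-treated replicates 1, 2 and 3 and at 30.8, 25.2 and 28.0 CPM in untreated replicates 1, 2 and 3. The groups did not overlap, and dox-treated replicate 3 was the closest to the untreated libraries. Mean and SD over 3 libraries were 37.9 ± 3.60 CPM under dox and 28.0 ± 2.80 CPM in its absence. The log2 fold change from limma, 0.44, had a standard error of 0.13, a 95% interval from 0.12 to 0.75 and an adjusted p of 0.091. Without dox-treated replicate 3 it was 0.51 with an adjusted p of 0.039 in limma. *Rcor2*, the third scaffold gene, was between 2.90 and 5.01 CPM in all 6 libraries.

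The log2 ratio of *Rcor1* to *Rcor3* CPM within a library, which is free of the scaling between libraries, was 2.29, 2.24 and 2.41 in dox-treated replicates 1, 2 and 3 and 2.88, 3.31 and 3.18 in untreated replicates 1, 2 and 3. All dox-treated libraries, replicate 3 included, lay below all untreated ones. This follows from *Rcor1* being lower and *Rcor3* higher in every dox-treated library, so it is not a separate result. The difference was -0.81. Its two-sided exact permutation p of 0.1, the lowest possible with 3 libraries against 3, was fixed by the same separation. Per kb of exon, *Rcor3* made up 23.6% ± 1.16 (SD, n = 3) of the 3 scaffold genes with dox and 15.2% ± 2.03 (SD, n = 3) without, and *Rcor1* 73.6% ± 0.954 and 82.6% ± 1.70. *Rcor1* remained the main scaffold gene in every library.

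**Figure D3:**
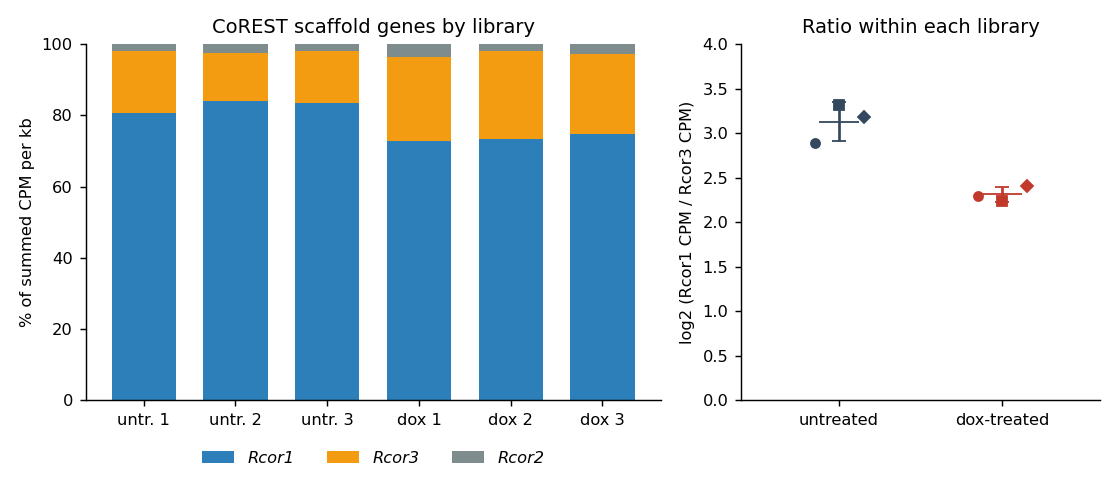
Left, the percentage of the summed CPM per kb of *Rcor1*, *Rcor3* and *Rcor2* that each gene held in each library; right, the log2 ratio of *Rcor1* to *Rcor3* CPM in each library, with the mean and SD (n = 3) and a marker shape for each replicate number. The *Rcor3* band is wider in the dox-treated libraries, at 23.6% against 15.2% on average, and the ratio is below 2.5 in each of them and above 2.8 in each untreated library.

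*Hmg20b* (ENSMUSG00000020232, chromosome 10 from 80808793 to 80813225, minus strand) encodes an HMG-box subunit of the LSD1–CoREST complex. It was at 58.5, 60.6 and 52.0 CPM in dox-treated replicates 1, 2 and 3 and at 43.3, 46.3 and 52.9 CPM in untreated replicates 1, 2 and 3. The groups overlapped, because untreated replicate 3 was slightly above dox-treated replicate 3. Mean and SD over 3 libraries were 57.0 ± 4.49 CPM under dox and 47.5 ± 4.94 CPM in its absence. The log2 fold change from limma, 0.26, had a standard error of 0.13, a 95% interval from -0.04 to 0.57 and an adjusted p of 0.219.

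Levels of different genes were compared per kb of exon, in CPM per kb. In untreated MEPs *Gfi1b* had the highest mean, at 96.2 ± 18.8 (SD, n = 3). *Rcor1* followed at 43.0 ± 2.54, *Kdm1a* at 23.9 ± 0.984, *Hmg20b* at 15.1 ± 1.57, *Gfi1* at 8.44 ± 2.85 and *Rcor3* at 7.85 ± 0.784. Libraries of neighbours in this order did not overlap, except those of *Gfi1* and *Rcor3*. With dox the order was the same but for the last places, *Rcor3* at 10.6 ± 1.01 standing above *Gfi1* at 3.73 ± 2.16 with no overlap, and *Gfi1b* was again the highest, at 66.8 ± 5.55. The place of *Kdm1a* depended on the length used: with its longest transcript in place of all its exons it was at 40.9 CPM per kb untreated, where it overlapped *Rcor1*, and at 43.6 with dox, where it was above *Rcor1*.

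**Figure D4:**
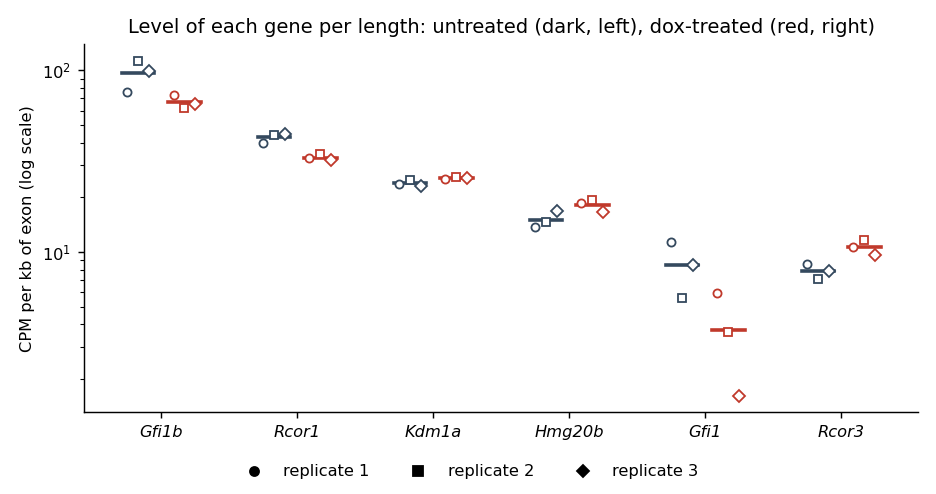
Level of each gene in CPM per kb of exon (log scale) in untreated (dark, left) and dox-treated (red, right) libraries, with a horizontal line at the mean and a marker shape for each replicate number. *Gfi1b* is highest in both groups, at 96.2 and 66.8 on average, and *Gfi1* and *Rcor3* exchange the lowest place.

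Other genes of LSD1 complexes, with the related demethylase gene *Kdm1b* and the corepressor methyltransferase genes, were taken as a list of 13 partners, all in the table. None passed (0 of 13), where 7.77% of all genes did, 7 had higher and 6 lower means with dox, and the median log2 fold change was 0.01, against -0.03 for all genes tested. At an unadjusted p of 0.05, 2 passed in limma, where 29.2% of all genes did, and without dox-treated replicate 3, 1 rose and 2 fell, where 28.9% of all genes were called. The smallest p-values belonged to *Phf21a*, *Zmym3* and *Ctbp1*. *Phf21a*, which encodes the subunit that binds unmethylated histone H3 tails, was at 45.4, 49.4 and 23.1 CPM in dox-treated replicates 1, 2 and 3 and at 17.8, 13.6 and 22.02 CPM in untreated replicates 1, 2 and 3, which in limma was a log2 fold change of 1.09 with a standard error of 0.34 and an adjusted p of 0.10. Dox-treated replicate 3 was barely above the untreated libraries, and without it the log2 fold change was 1.44 with an adjusted p of 0.018 in limma. *Zmym3*, a zinc-finger subunit, was at 115.7, 104.4 and 99.3 CPM with dox and at 74.2, 60.3 and 93.6 CPM without (log2 fold change 0.51, adjusted p = 0.133, limma). *Ctbp1*, a corepressor that joins the complex, was at 342.8, 342.6 and 421.6 CPM with dox and at 445.9, 446.1 and 445.6 CPM without (log2 fold change -0.28, adjusted p = 0.188, limma, and 0.027 without dox-treated replicate 3). The deacetylase genes *Hdac1* and *Hdac2*, named here after their values were seen, had log2 fold changes of -0.25 and -0.19 with adjusted p-values of 0.204 and 0.479 in limma. Without dox-treated replicate 3 *Hdac2* was at -0.36 with an adjusted p of 0.045. A separate list of other genes with a SNAG domain, *Snai1*, *Snai2*, *Snai3*, *Insm1* and *Scrt1*, was not analysed here.

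**Figure D5:**
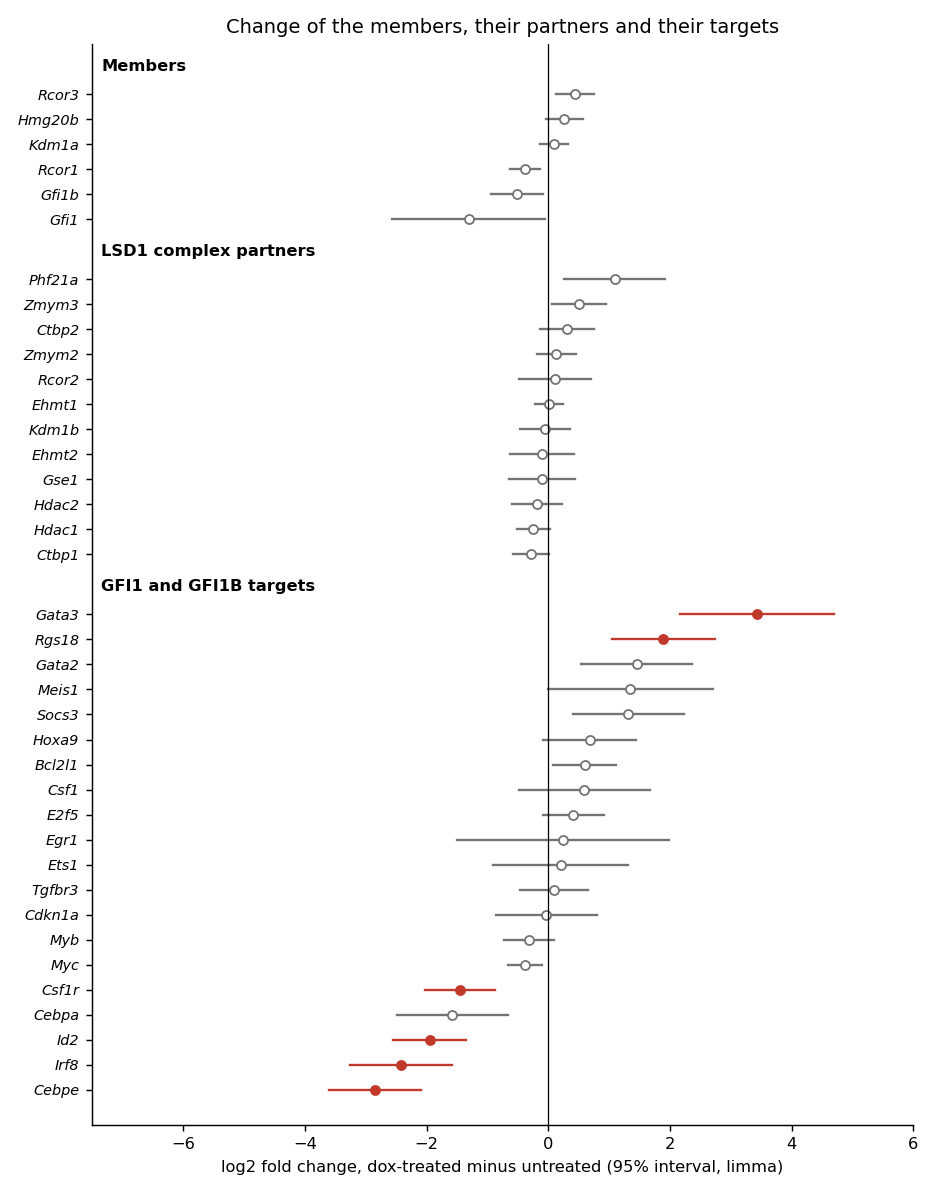
Log2 fold change (horizontal axis, dox-treated minus untreated) with its 95% interval from limma for the 6 genes, 12 of the partners and 20 of the targets; filled red points passed an adjusted p of 0.05 over all genes tested and open grey points did not. All filled points are targets, 2 to the right and 4 to the left of 0.

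Genes that GFI1 or GFI1B are known to repress were taken as a list of 23 targets, of which 21 were tested. Of these 2 rose and 4 fell with dox, where 4.59% of all genes rose and 3.18% fell, 13 had higher and 8 lower means, and the median log2 fold change was 0.25, against -0.03 for all genes tested. Those that rose were *Gata3* and *Rgs18*. *Gata3*, a T-lymphocyte transcription factor, was at 35.3, 33.1 and 12.2 CPM in dox-treated replicates 1, 2 and 3 and at 1.48, 1.995 and 3.64 CPM in untreated replicates 1, 2 and 3, which in limma was a log2 fold change of 3.43 with a standard error of 0.52 and an adjusted p of 0.022. *Rgs18*, a regulator of G-protein signalling in platelets and their precursors, was at 75.7, 103.3 and 68.0 CPM with dox and at 29.8, 13.2 and 26.5 CPM without, which in limma was a log2 fold change of 1.89 with a standard error of 0.35 and an adjusted p of 0.035. *Rgs18* ranked below the 5 smallest p-values of the list and is named after its value was seen.

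The targets that fell were *Cebpe*, *Id2*, *Irf8* and *Csf1r*. *Cebpe*, a transcription factor of granulocyte maturation, was at 2.06, 1.34 and 1.80 CPM in dox-treated replicates 1, 2 and 3 and at 17.1, 8.20 and 14.01 CPM in untreated replicates 1, 2 and 3 (limma, log2 fold change -2.85, SE 0.31, adjusted p 0.011). *Id2*, an inhibitor of basic helix-loop-helix factors, was at 1.62, 1.27 and 1.80 CPM with dox and at 7.85, 4.43 and 6.37 CPM without (limma, log2 fold change -1.95, SE 0.25, adjusted p 0.015). *Irf8*, a factor of monocytes and dendritic cells, was at 8.03, 5.21 and 5.39 CPM with dox and at 44.9, 20.2 and 38.2 CPM without (limma, log2 fold change -2.41, SE 0.34, adjusted p 0.018). All dox-treated libraries lay below all untreated ones for each of these genes. *Csf1r*, the receptor for macrophage colony-stimulating factor, changed by -1.45 on the log2 scale (limma, SE 0.23, adjusted p 0.024). Across the untreated replicates all 4 genes had the order of the summed granulocyte–monocyte markers, but among the dox-treated replicates all 4 were lowest in replicate 2, where the sum was highest. *Cebpe*, *Irf8* and *Csf1r* are also members of that marker list and so part of the sum, and the part of those cells in their levels was not tested. Among the other 18 targets 2 rose and 1 fell, and their median log2 fold change was 0.50.

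The homeobox targets *Hoxa9* and *Meis1*, stem cell factors named here after their values were seen and also counted among the stem and multipotent progenitor markers, had log2 fold changes of 0.68 and 1.35 with adjusted p-values of 0.207 and 0.171 in limma. *Meis1* was at 52.7, 63.6 and 17.6 CPM in dox-treated replicates 1, 2 and 3 and at 19.1, 9.61 and 19.4 CPM in untreated replicates 1, 2 and 3. For both genes dox-treated replicate 3 lay within the untreated range, and without it they rose by 1.03 and 1.92 on the log2 scale with adjusted p-values of 0.0091 and 0.024 in limma. Over the whole list, 7 targets rose and 5 fell without that library, where 28.9% of all genes were called. Whether a target differed because of a GFI1 factor was not tested.

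The genes whose level across the 6 libraries followed that of *Gfi1* most closely, out of 9986 genes averaging 5 CPM or more, were *Per3* with a Pearson r of 0.989, *Pkp4* with 0.985 and *Unc93b1* with 0.982, where 1.22% of genes had an r of at least 0.9. For *Gfi1b* they were *Nsfl1c* with 0.994, *Terf1* with 0.993 and *Rps2* with 0.991, where 4.45% of genes had an r of at least 0.9. These correlations of log2 CPM over 6 libraries in 2 groups share library scaling and are a description only. *Unc93b1*, which encodes a chaperone of endosomal Toll-like receptors, was at 18.04, 13.03 and 7.19 CPM in dox-treated replicates 1, 2 and 3 and at 34.1, 14.8 and 23.7 CPM in untreated replicates 1, 2 and 3. It had the order of *Gfi1* in both groups, as did *Per3* and *Pkp4*. That order goes with the choice of these genes by correlation and is not a separate result. None of the 6 neighbours passed the test (0 of 6), with adjusted p-values between 0.0963 and 0.224 in limma.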

How the data were processed

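RNA of sorted MEPs was sequenced from 3 dox-treated and 3 untreated samples. Adapter removal used Cutadapt, quantification used RSEM against Ensembl transcripts of NCBIM37, and normalization used limma. The authors deposited log2 CPM with 0.5 reads added for 12101 genes, after a filter on low genes. Normalization method and read length are not given in the sources used here. From these values 100% of entries came out as whole reads within 1e-06, with a largest deviation of 6.6e-09. Counting error only is covered by the depth given.

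limma (version 3.58.1, R 4.3.3), lmFit and eBayes, was fitted without block or weights to the 12088 genes that reached 1 CPM in 3 or more libraries, and p-values were adjusted by Benjamini–Hochberg with a threshold of 0.05. The fit was tested on simulated data. The 0.5 reads in the log2 values make fold changes of low genes appear smaller. Ratios within libraries had a two-sided exact permutation test.

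The 6 genes, the lists and the tests were chosen with earlier results of these data known. Named were all 6 genes, *Nanog*, up to 5 genes per list past the threshold by smallest p or the 3 smallest where none passed, and 3 neighbours each of *Gfi1* and *Gfi1b* by Pearson r. Positions, exon lengths and names came from the GENCODE annotation of NCBIM37, which named 12067 genes. Promoters are the 250 bases before each RefSeq start, and all 6 genes matched. Alternatives changed the pseudocount, filter, variance model, weights, scaling and block, and left out each library. The voom fits (precision weights, with and without the block) were chosen after seeing the data. Tables used Python 3.11.15 and pandas 2.3.3. Proteins and the paper's other experiments were not analysed here. Of the lists, 1 partner, 1 target and 1 lymphoid marker are counted but are not reported here by name.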

Additional observations from a re-analysis of the deposited data

How the results depend on the processing

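No log2 fold change of the 6 genes changed sign in 17 alternatives each. *Gfi1*, *Kdm1a* and *Hmg20b* passed an adjusted p of 0.05 in 0 of 17 (limma; *Gfi1* adjusted p between 0.055 and 0.328). With array weights, which gave dox-treated replicate 3 a weight of 0.163, *Gfi1b* passed at -0.46, *Rcor1* at -0.37 and *Rcor3* at 0.47, 3 of 6, where 42.3% of all genes were called. *Rcor1* also passed with a mean-variance trend (-0.38, 1 of 6) and with voom precision weights (-0.38, 1 of 6), where 13.7% and 9.80% of genes were called. Leaving out each library in turn, *Rcor1* ranged from -0.43 to -0.35 and *Rcor3* from 0.36 to 0.51. Without dox-treated replicate 3, 2 of the 6 genes passed, where 28.9% of all genes were called. Without any other library 0 of the 6 passed, where 92 to 143 of the 12088 genes were called higher and 36 to 126 lower. Partners called were 4 of 13 with array weights, 3 without dox-treated replicate 3 and 0 without any other library.

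Targets called were 10 with the trend, 16 with array weights, 3 with the replicate block and 0 to 12 when a library was left out (0 without untreated replicate 3, 1 without dox-treated replicate 1 or 2, 2 without untreated replicate 1, 12 without dox-treated replicate 3). Over all genes, 909 were higher and 747 lower with the trend, 2515 and 2601 with array weights, and 92 to 1801 higher and 36 to 1687 lower when a library was left out, the largest counts without dox-treated replicate 3. Both groups carry replicate numbers 1 to 3, but same-numbered libraries deviated from their group means with a mean correlation of -0.133 across genes (0.071 for other pairs). The labels do not say whether a number marks a shared day or litter, so the numbers were not taken to pair the samples. With the replicate block 53 genes were higher and 29 lower (0.678% of genes, 77 of them also called without it), and 0 of the 6 genes and the targets *Cebpe*, *Id2* and *Irf8* passed. Why these counts moved was not tested.

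Scaling to the reads on listed genes moved the median log2 fold change of all genes from -0.03 to 0.08 and changed no sign among the 6 genes. Both within-library ratios kept their direction in 8 alternatives each, *Rcor1* to *Rcor3* between -0.93 and -0.72 and *Gfi1* to *Gfi1b* between -1.19 and -0.31. With the longest transcript as the length, *Kdm1a* was at 43.6 CPM per kb with dox and 40.9 without, and *Hmg20b* at 22.8 and 19.0. With 3 libraries a group the exact test cannot go below 0.1, and for *Gfi1*, whose log2 values had an SD of 0.94 among the dox-treated libraries, the 95% interval spans -2.57 to -0.05.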
